A study of Homo sapiens with 18 samples.

Results

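The genes described here build, acidify and fill the lysosome and form the autophagosome, the vesicle that delivers cell contents to it. They were taken from a list of 44 symbols, of which 42 had a probe named in the array's annotation, out of 17687 gene symbols and 21448 probes in all. No probe carried the symbol of NEU1 or ATP6V0A1, and each of the other genes had 1 probe. Expression was measured in SK-N-BE(2) and CHLA-90, both human neuroblastoma cell lines, after silencing of ERK5, a mitogen-activated protein kinase encoded by MAPK7. Cells seeded at 250000 per well received lentivirus made in HEK-293T cells, and RNA was taken 72 hours later. In each line, 3 cultures labelled as biological replicates carried the pLKO control hairpin shNSC, 3 carried shERK5-4 and 3 carried shERK5-5, which makes 6 groups and 18 arrays. All groups therefore share lentiviral infection and a hairpin, and the labels give no untransduced cells. The labels name no selection of transduced cells. Values are log2 signals of biotin-labelled total RNA on whole-transcript arrays.

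A lysosome digests material with hydrolases that work at low pH. The pH is set by the V-ATPase, a proton pump with a membrane sector (V0) and a cytosolic sector that splits ATP (V1). Mannose 6-phosphate receptors carry newly made hydrolases from the Golgi to endosomes. Autophagy starts with the ULK and Beclin 1 complexes, grows a membrane supplied in part by ATG9 vesicles, and attaches ATG8 proteins such as LC3 and GABARAP to lipid through a ubiquitin-like conjugation system, after the ATG4 proteases have trimmed them. Many of these genes are activated by TFEB, TFE3 and MITF, which bind an E-box with the core CACGTG, and in neuroblastoma the amplified or overexpressed MYC family binds the same core.

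MAPK7, the targeted gene, fell in all 4 comparisons. In SK-N-BE(2) its log2 change was -0.69 ± 0.20 (SE; 3 arrays against 3) for shERK5-4 and -0.64 for shERK5-5, where the signal was 61.8% and 64.3% of that under shNSC, and in CHLA-90 it was -1.07 and -0.99, at 47.7% and 50.5%. The adjusted p-values, from limma with Benjamini-Hochberg adjustment over all probes, were 0.0103, 0.0319, 0.000329 and 0.00139. In SK-N-BE(2) the call for shERK5-4 was lost without shNSC replicate 1 (adjusted p = 0.061), and that for shERK5-5 was lost without any of 4 arrays (0.0833 to 0.149). The hairpin arrays lay below every control array in each line. Array medians were 5.63 to 5.69 in SK-N-BE(2) and 6.35 to 6.43 in CHLA-90. Pearson's r across probes was 0.988 to 0.997 within a group and 0.913 to 0.933 between lines. Of 9 measured sympathetic neuroblastoma markers, 8 lay above the median probe in SK-N-BE(2), with DBH below it, and 9 did in CHLA-90. All 5 measured fibroblast markers did so in SK-N-BE(2) and 4 in CHLA-90. Of the blood and immune markers, 1 of 4 lay above the median in SK-N-BE(2) and 0 in CHLA-90, and 0 of 4 endothelial and 0 of 2 Schwann markers did in either line. The mean level of the sympathetic markers moved with shERK5-4, from 10.53 to 10.79 on the shNSC arrays to 9.4 to 9.88 in SK-N-BE(2), and from 12.83 to 13.11 to 10.8 to 11.14 in CHLA-90. With shERK5-5 it was 10.62 to 10.91 and 12.39 to 12.77. The mean level of the 5 fibroblast markers moved with both hairpins. For SK-N-BE(2) it was 9.72 to 9.87 under shNSC, 9.2 to 9.35 with shERK5-4 and 10.83 to 10.88 with shERK5-5. The CHLA-90 ranges were 8.5 to 8.73, 7.84 to 8.14 and 8.76 to 9.23. Single markers did not all follow the means. Under shERK5-4, SK-N-BE(2) had 1 fibroblast marker called higher and 2 lower, while CHLA-90 had 0 and 2. Under shERK5-5 these counts were 3 and 0, then 1 and 0. Of the 9 sympathetic markers, shERK5-4 lowered 5, then 6, and raised 0. For shERK5-5 that list had 1 higher and 0 lower, then 0 and 2. The part of these shifts in the results below was not tested. In such bulk RNA, fewer cells of a type and less RNA per cell cannot be told apart.

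Genes of the lysosome and of autophagy were called in both directions with each hairpin. Among the 42 genes, shERK5-4 raised 10 and lowered 4 in SK-N-BE(2), against 12.2% of all probes called higher and 11.7% called lower. A call here means an adjusted p under 0.05. In that line shERK5-5 raised 10 and lowered 5, against 6.76% and 6.07% of all probes. In CHLA-90, shERK5-4 raised 6 and lowered 3, against 10.0% and 8.25% (14 calls, 11 of them higher, in place of 9 when the arrays of those groups were fitted alone), and shERK5-5 raised 5 and lowered 5, against 5.85% and 6.84%. In either direction the called share was 33.3%, 35.7%, 21.4% and 23.8% of the 42 genes, beside 23.9%, 12.8%, 18.3% and 12.7% of all probes. Most of these genes are bright, with 37 of the 42 above the median probe, and bright probes are called more often. Among all probes above the median, 40.8%, 22.8%, 30.1% and 20.5% were called in the same order. The corresponding shares of the 37 bright genes were 37.8%, 40.5%, 24.3% and 27.0%. The widest gap between the genes and bright probes was that of shERK5-5 in SK-N-BE(2), where the number of called genes fell to 8 without shNSC replicate 2, and to 9 without shNSC replicate 1 or without shERK5-5 replicate 3. The median log2 change of the genes was 0.158, 0.203, 0.147 and -0.102, beside 0.013, -0.003, 0.01 and 0.05 over all probes.

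The hairpins of a line share their 3 control arrays, so their changes are given side by side. In SK-N-BE(2), 5 genes were called the same way with both hairpins (11.9%, beside 5.21% of all probes and 9.34% of those above the median), of which M6PR, ATP6V0D1, ULK1 and ATG4D rose and ATP6V1C1 fell. In CHLA-90 there were 3 (7.14%, beside 3.51% and 6.07%), and M6PR, UVRAG and ATG4D all rose. M6PR and ATG4D rose in all 4 comparisons, which makes 2 genes of 42 (4.76%, beside 1.29% and 2.5%). Between lines, which share no arrays, shERK5-4 gave the same call for 6 genes (14.3%, beside 10.4%), namely M6PR, ATP6V0D1, UVRAG, ATG9A, ATG4A and ATG4D. For shERK5-5 the number was 7 (16.7%, beside 4.58%), namely LAMP1, M6PR, ATP6V1B2, ULK1, ATG9A, ATG12 and ATG4D. The LAMP1 call in SK-N-BE(2) was lost without any of 6 arrays. Both shares are set beside all probes only. The share among probes above the median was not calculated for these counts, so the brightness of the genes is not allowed for. At least 1 call was made for 26 genes (61.9%, beside 39.7% of all probes and 63.2% of those above the median). The other 16 were TFEB, TFE3, MITF, CTSL, CTSZ, HEXA, GUSB, ATP6V0B, ATP6V1A, ATP6V1H, ULK2, ATG5, ATG16L1, MAP1LC3A, GABARAPL1 and SQSTM1. Of these, TFE3, CTSL, GUSB, ATP6V0B, ATP6V1A, ATG16L1, MAP1LC3A, GABARAPL1 and SQSTM1 were called in at least 1 comparison when some single array was left out. The heat map of all 42 genes sets out these calls by role.

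**Figure D1:**
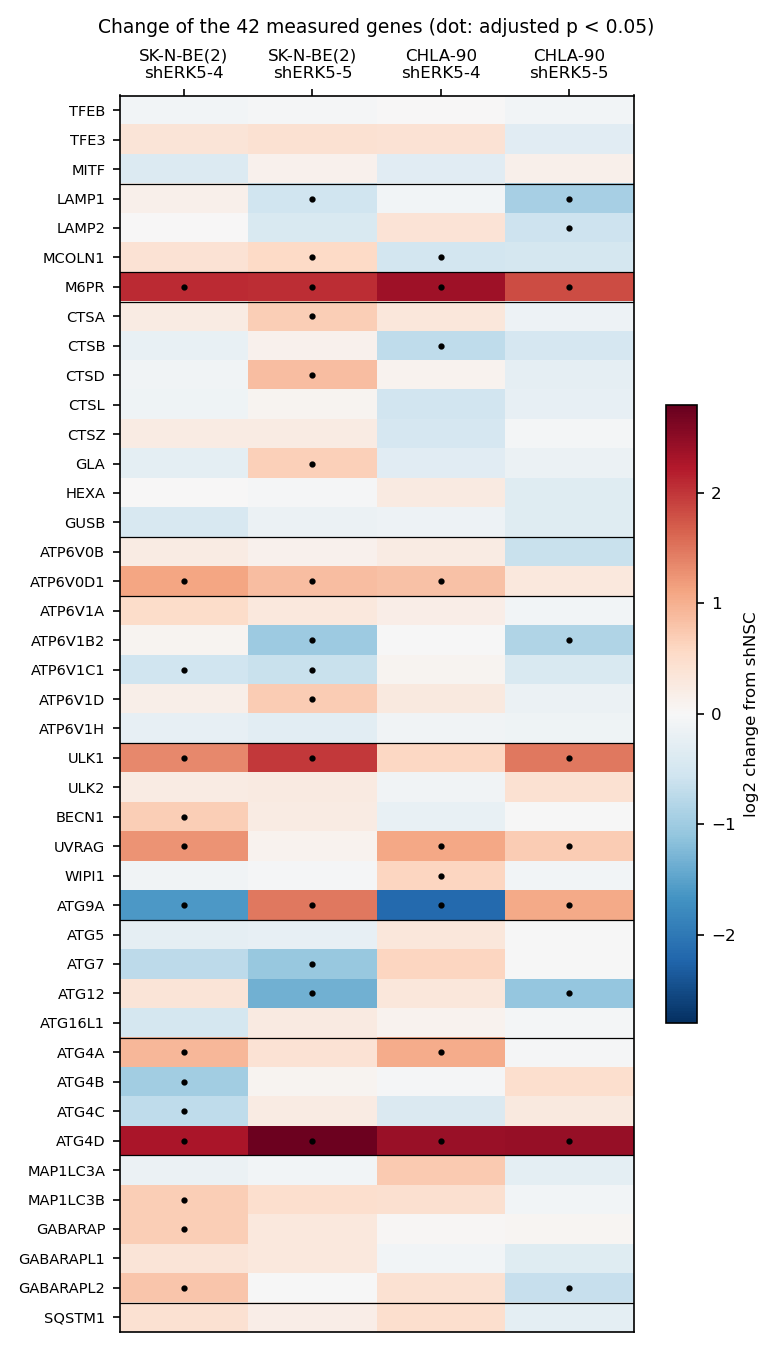
Log2 change from shNSC of the 42 measured genes (rows, grouped by role and divided by lines) in the 4 comparisons (columns), with red for higher, blue for lower and a dot for an adjusted p under 0.05. M6PR and ATG4D are dark red in all 4 columns, and ATG9A is blue with shERK5-4 and red with shERK5-5 in both lines.

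The promoters of 32 of the 42 genes were matched by symbol in a RefSeq table on GRCh38.p14. The other 10 had no entry and were not searched, namely LAMP2, CTSB, HEXA, ATP6V1A, ATP6V1B2, ATP6V1C1, ATP6V1H, UVRAG, ATG4D and MAP1LC3A. The 250 bases before the start of transcription were searched for CACGTG, which reads the same on both strands. It was present in 7 of the 32 genes (21.9%), beside 6.34% of all 35116 promoters and 7.73% of all genes with any of their promoters. The longer TCACGTGA, which contains that core, was present in 4 of the genes and in 0.854% of all promoters. The 200 bases before the start are printed for the 7 genes that held CACGTG. Of these, M6PR, ATP6V0D1, LAMP1, MCOLN1, CTSA and CTSD were called in at least 1 comparison, and ATP6V0B was not. Each printed sequence runs 5′ to 3′ on the gene's own strand and ends just before the start, with each CACGTG in capitals. They lie at chr13:113297039-113297238 on the plus strand for LAMP1, chr19:7522424-7522623 on the plus strand for MCOLN1, chr12:8949411-8949610 on the minus strand for M6PR, chr20:45891135-45891334 on the plus strand for CTSA, chr11:1763928-1764127 on the minus strand for CTSD, chr1:43974760-43974959 on the plus strand for ATP6V0B and chr16:67481158-67481357 on the minus strand for ATP6V0D1.
LAMP1: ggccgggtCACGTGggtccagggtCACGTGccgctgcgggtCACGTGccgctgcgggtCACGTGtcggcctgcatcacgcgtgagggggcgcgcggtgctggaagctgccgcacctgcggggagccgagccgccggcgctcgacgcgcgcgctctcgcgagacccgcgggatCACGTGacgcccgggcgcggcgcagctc
MCOLN1: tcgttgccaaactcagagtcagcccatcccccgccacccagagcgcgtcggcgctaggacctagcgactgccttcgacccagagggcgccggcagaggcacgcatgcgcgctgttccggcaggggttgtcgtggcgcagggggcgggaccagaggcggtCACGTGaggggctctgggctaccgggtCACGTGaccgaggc
M6PR: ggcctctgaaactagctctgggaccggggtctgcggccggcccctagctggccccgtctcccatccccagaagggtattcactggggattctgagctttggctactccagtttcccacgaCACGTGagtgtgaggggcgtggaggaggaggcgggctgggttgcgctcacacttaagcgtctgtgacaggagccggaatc
CTSA: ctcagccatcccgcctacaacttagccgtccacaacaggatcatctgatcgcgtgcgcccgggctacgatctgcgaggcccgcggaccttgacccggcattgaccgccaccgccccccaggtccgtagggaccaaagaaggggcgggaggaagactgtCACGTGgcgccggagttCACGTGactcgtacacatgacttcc
CTSD: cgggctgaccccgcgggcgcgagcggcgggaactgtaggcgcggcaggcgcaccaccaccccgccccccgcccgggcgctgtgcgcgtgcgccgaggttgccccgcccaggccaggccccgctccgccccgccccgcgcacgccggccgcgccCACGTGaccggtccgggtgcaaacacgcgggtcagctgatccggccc
ATP6V0B: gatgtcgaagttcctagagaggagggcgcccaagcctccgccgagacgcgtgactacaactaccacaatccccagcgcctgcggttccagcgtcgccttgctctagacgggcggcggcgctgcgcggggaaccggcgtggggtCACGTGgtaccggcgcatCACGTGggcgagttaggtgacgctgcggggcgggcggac
ATP6V0D1: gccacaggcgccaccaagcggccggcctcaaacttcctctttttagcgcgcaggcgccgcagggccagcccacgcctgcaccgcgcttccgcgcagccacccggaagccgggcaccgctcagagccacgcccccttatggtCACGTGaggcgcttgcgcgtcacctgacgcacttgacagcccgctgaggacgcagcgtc
LAMP1 held 5 copies of the core, of which 4 lay close together far from the start, with first bases 192, 176, 159 and 142 bases before it, and the last at 28. MCOLN1 held 2, at 41 and 14, CTSA 2, at 42 and 25, and ATP6V0B 2, at 57 and 39. CTSD, M6PR and ATP6V0D1 held 1 each, at 47, 80 and 59, in M6PR before 1 of its 2 listed starts. Calls among these 7 genes went in both directions. With shERK5-5 in SK-N-BE(2), CTSA, CTSD, M6PR, MCOLN1 and ATP6V0D1 were called higher and LAMP1 was called lower. Of these, the calls of CTSA, CTSD, MCOLN1 and LAMP1 were lost when some single arrays were left out. With that hairpin in CHLA-90, M6PR was called higher and LAMP1 lower. With shERK5-4, SK-N-BE(2) had 2 called higher and 0 lower, and CHLA-90 had 2 and 1. The 1 lower call, that of MCOLN1, was lost without any of 4 arrays. Among the 25 other genes with a promoter entry, the numbers called higher and lower were 6 and 3, 4 and 2, 2 and 1, and 2 and 2 in the order SK-N-BE(2) shERK5-4, SK-N-BE(2) shERK5-5, CHLA-90 shERK5-4 and CHLA-90 shERK5-5. Of all probes, 12.2%, 6.76%, 10.0% and 5.85% were called higher and 11.7%, 6.07%, 8.25% and 6.84% lower in that order. Whether the calls go with the motif was not tested. A match of these letters is a description of the sequence and not a measured binding site.

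None of the 3 transcription factors of the TFEB family was called with either hairpin in either line when all arrays were used. TFEB itself had a signal near the bottom of the array, with group means of 2.56 to 2.78, below which lay at most 2.1% of probes. Its arrays under shNSC read 2.58, 2.79 and 2.55 in SK-N-BE(2), while those of CHLA-90 read 2.78, 2.82 and 2.74. All hairpin arrays fell between 2.53 and 2.82, and the groups overlapped. With no detection calls, a signal at this end of the scale cannot be told from background. TFE3 read 6.44, 6.22 and 7.33 under shNSC in SK-N-BE(2), while its CHLA-90 controls read 7.74, 7.52 and 8.11. Its log2 changes were 0.35, 0.42, 0.40 and -0.31 (± 0.25 SE each). Its shNSC replicate 3 in SK-N-BE(2) was the highest control, and without it the changes there were 0.68 (adjusted p = 0.0391) and 0.76 (0.0379), both called. With all arrays, the 95% interval of the shERK5-4 change there, -0.16 to 0.86, includes 0. MITF, better known for the pigment lineage, changed by -0.39, 0.12, -0.31 and 0.15 (± 0.32), with overlapping arrays in all 4 comparisons. The direct comparison of the hairpins called 1 of the 3 in 1 line, with TFE3 higher under shERK5-4 than under shERK5-5 in CHLA-90 by 0.70 ± 0.25 (adjusted p = 0.0382), a call lost without any of 4 arrays (0.0637 to 0.185).

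Of the lysosomal membrane proteins, LAMP1 was lower with shERK5-5 in both lines and near its control with shERK5-4. LAMP1 is an abundant glycoprotein that lines the lysosomal membrane. In SK-N-BE(2) its log2 signal was 10.18, 10.02 and 10.08 under shNSC, 10.10, 10.33 and 10.28 with shERK5-4, and 9.53, 9.52 and 9.53 with shERK5-5. In CHLA-90 it was 10.44, 10.08 and 10.73, then 10.11, 10.38 and 10.54, then 9.31, 9.44 and 9.70. The shERK5-5 arrays lay below all other arrays of their line, while the shERK5-4 and control arrays overlapped. The log2 change with shERK5-5 was -0.57 ± 0.18 (adjusted p = 0.0337) in SK-N-BE(2), a call lost without any 1 of the 6 arrays compared (0.0636 to 0.117), and -0.93 ± 0.18 (0.000871) in CHLA-90. With shERK5-4 it was 0.14 and -0.07, neither called. LAMP2, whose isoforms serve lysosome fusion and chaperone-mediated autophagy, changed by 0.00, -0.43, 0.39 and -0.59 (± 0.16) in the order SK-N-BE(2) shERK5-4 and shERK5-5, then CHLA-90 shERK5-4 and shERK5-5. The last was called (adjusted p = 0.0194). It was lost without CHLA-90 shERK5-5 replicate 2, shNSC replicate 1 or shNSC replicate 2 (0.0675 to 0.0716).

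MCOLN1, the lysosomal calcium release channel, went in opposite directions in the lines. In SK-N-BE(2) it read 10.10, 10.18 and 10.56 under shNSC, 10.52, 10.76 and 10.79 with shERK5-4, and 10.66, 11.05 and 10.80 with shERK5-5. In CHLA-90 it read 12.36, 12.05 and 12.49, then 11.59, 11.77 and 11.97, then 11.69, 11.86 and 11.89. Every CHLA-90 hairpin array lay below the controls, and in SK-N-BE(2) the shERK5-5 arrays lay above them while 1 shERK5-4 array fell within their range. The log2 changes were 0.41 ± 0.18 (adjusted p = 0.104), 0.56 (0.0386), -0.52 (0.0413) and -0.49 (0.0744). The 2 calls among them each depended on single arrays. The first was lost without any of 5 arrays (0.0502 to 0.187), and the second without any of 4 (0.105 to 0.172). The difference between the lines itself is given with the other line differences below.

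M6PR, the cation-dependent mannose 6-phosphate receptor that sorts hydrolases to endosomes, rose about as much with each hairpin in each line. In SK-N-BE(2) its log2 signal was 10.84, 11.15 and 10.45 under shNSC, 13.14, 12.64 and 12.94 with shERK5-4, and 12.78, 12.88 and 13.01 with shERK5-5. In CHLA-90 it was 11.75, 11.81 and 11.50, then 14.09, 14.01 and 14.05, then 13.73, 13.36 and 13.48. All 12 hairpin arrays stood far above the 6 control arrays, with no overlap in either line. SK-N-BE(2) showed rises of 4.27-fold and 4.22-fold and CHLA-90 of 5.15-fold and 3.57-fold, or 2.09, 2.08, 2.36 and 1.84 on the log2 scale (± 0.18 SE each). Adjusted p-values were 1.14e-08, 4.8e-08, 2.96e-09 and 5.58e-07. In SK-N-BE(2) the hairpins differed by 0.02 ± 0.18 (adjusted p = 0.971), and in CHLA-90 shERK5-4 was higher by 0.53 ± 0.18 (0.0367), a call lost without any of 5 arrays (0.0735 to 0.121). The difference between lines in the mean effect was 0.02 ± 0.23 (0.986).

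Of the 8 lysosomal hydrolases measured, CTSA, CTSB, CTSD and GLA were called in 1 comparison each. Among the cathepsins CTSA, CTSB, CTSD, CTSL and CTSZ and the glycosidases GLA, HEXA and GUSB, 0 were called with shERK5-4 in SK-N-BE(2), 3 were higher with shERK5-5 there (6.76% of all probes were), 1 was lower with shERK5-4 in CHLA-90 (8.25%), and 0 were called with shERK5-5 in CHLA-90. The medians of the 8 log2 changes were -0.12, 0.18, -0.23 and -0.25. The lowest change among the 8 was -0.71, in CTSB, and the highest was 0.87, in CTSD.

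The 3 that rose with shERK5-5 in SK-N-BE(2) were CTSA, CTSD and GLA. CTSD, an aspartic protease, read 10.10, 10.82 and 11.41 under shNSC, 10.50, 10.48 and 11.04 with shERK5-4, and 11.44, 11.47 and 12.03 with shERK5-5. Its control arrays spread widely, and the shERK5-5 arrays lay just above the highest of them. The log2 change was 0.87 ± 0.27 (adjusted p = 0.0326), lost without shERK5-5 replicate 3, shNSC replicate 1 or shNSC replicate 2 (0.0761 to 0.249). GLA, the α-galactosidase that is deficient in Fabry disease, rose by 0.68 ± 0.19 (0.0193), lost without shERK5-5 replicate 1 or 3 or shNSC replicate 2 (0.0504 to 0.119). CTSA, which protects glycosidases in a complex, rose by 0.69 ± 0.22 (0.0436), lost without any of 8 arrays (0.0504 to 0.215). In CHLA-90 the changes of CTSD, GLA and CTSA with shERK5-5 were -0.25, -0.16 and -0.15, none called. CTSB, a cysteine protease, fell with shERK5-4 in CHLA-90 from 14.06, 14.08 and 14.20 to 13.52, 13.37 and 13.32, by 0.71 on the log2 scale (± 0.19, adjusted p = 0.0098), and with shERK5-5 read 13.61, 13.61 and 13.68, a change of -0.48 (0.103). CTSL, CTSZ, HEXA and GUSB were called in no comparison with shNSC.

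In the V-ATPase, 1 subunit of the membrane sector rose while subunits of the cytosolic sector were mixed. ATP6V0D1, the d subunit that links V0 to the central stalk, read 11.97, 12.33 and 12.52 under shNSC, 13.30, 13.32 and 13.49 with shERK5-4, and 13.12, 13.16 and 13.13 with shERK5-5, all in SK-N-BE(2). In CHLA-90 its arrays were 14.15, 14.08 and 14.57, then 15.06, 15.04 and 15.17, then 14.58, 14.36 and 14.75. The hairpin arrays were above all controls in SK-N-BE(2) and with shERK5-4 in CHLA-90, and overlapped them with shERK5-5 in CHLA-90. The rises were 2.14-fold (log2 1.10 ± 0.17, adjusted p = 4e-05), 1.82-fold (0.86, 0.00121) and 1.77-fold (0.82, 0.00137), and with shERK5-5 in CHLA-90 the change was 0.30 (0.297). ATP6V0B, a proteolipid of the membrane ring, changed by 0.23, 0.13, 0.23 and -0.62 (± 0.24), none called, although its shERK5-5 arrays in CHLA-90 (12.61, 12.29 and 13.07) lay below the controls (13.13, 13.13 and 13.57).

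ATP6V1B2, the nucleotide-binding B subunit found in most tissues, fell with shERK5-5 alone in each line. Its arrays in SK-N-BE(2) were 12.32, 12.39 and 11.99 under shNSC, 12.50, 11.93 and 12.48 with shERK5-4, and 11.19, 10.95 and 11.48 with shERK5-5. In CHLA-90 they were 12.95, 13.05 and 13.05, then 13.08, 12.98 and 12.98, then 12.28, 11.76 and 12.45. The shERK5-5 arrays lay below all others of their line, and the shERK5-4 arrays overlapped the controls. With shERK5-5 the log2 change was -1.03 ± 0.20 (adjusted p = 0.000866) and -0.85 ± 0.20 (0.00591), and with shERK5-4 it was 0.07 and 0.00.

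ATP6V1C1, the C subunit that joins the sectors when the pump assembles, fell a little in SK-N-BE(2). Its arrays there were 10.51, 10.21 and 10.25 under shNSC, 9.85, 10.11 and 9.35 with shERK5-4, and 9.70, 9.92 and 9.46 with shERK5-5. In CHLA-90 they were 11.04, 11.24 and 11.21, then 11.14, 11.45 and 11.14, then 10.38, 10.86 and 10.94. In SK-N-BE(2) the arrays of both hairpins, which overlapped each other, lay below the controls, with a small gap to the nearest. The log2 changes were -0.55 ± 0.20 (adjusted p = 0.0479) and -0.63 (0.0391). The first was lost without any of 14 of the 18 arrays (0.0503 to 0.268) and the second without any of 5 (0.0636 to 0.188), and under median centring (0.0508). In CHLA-90 the changes were 0.08 and -0.44, neither called. ATP6V1D, a subunit of the central stalk, rose with shERK5-5 in SK-N-BE(2), from 9.05, 8.68 and 8.93 to 9.57, 9.69 and 9.56 (0.72 ± 0.16, adjusted p = 0.00329), and its other changes were 0.17, 0.27 and -0.17. ATP6V1A, the catalytic subunit, changed by 0.51, 0.29, 0.19 and -0.08 (± 0.19), and ATP6V1H by -0.22, -0.30, -0.09 and -0.12 (± 0.17), none called.

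**Figure D2:**
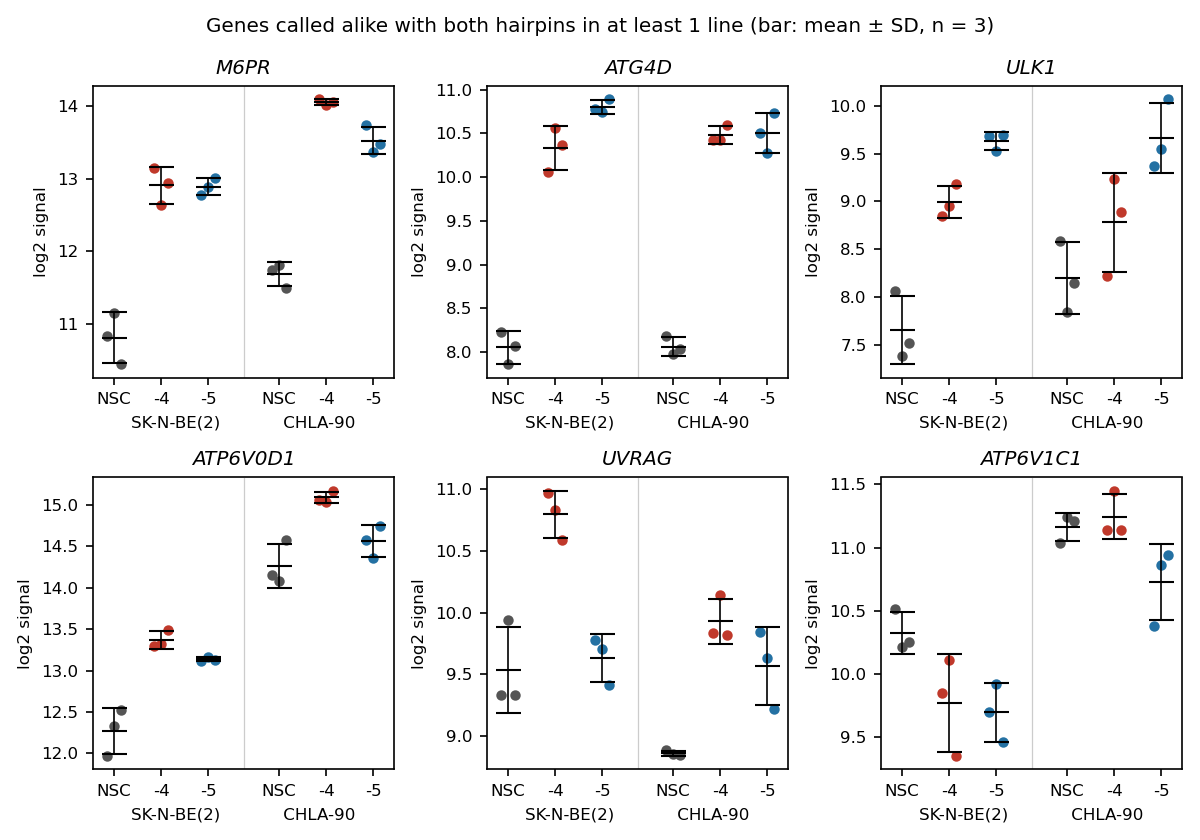
Log2 signal of each array (points) for the 6 genes called the same way with both hairpins in at least 1 line, with the mean ± SD of the 3 arrays as bars, and grey for shNSC, red for shERK5-4 and blue for shERK5-5. M6PR and ATG4D stand above their controls in all 4 hairpin groups, UVRAG with shERK5-5 in SK-N-BE(2) and ULK1 with shERK5-4 in CHLA-90 overlap them, and ATP6V1C1 is lower in SK-N-BE(2).

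ULK1, the kinase that starts autophagy, rose in 3 of the 4 comparisons. In SK-N-BE(2) it read 8.06, 7.38 and 7.52 under shNSC, 8.85, 8.95 and 9.18 with shERK5-4, and 9.68, 9.53 and 9.70 with shERK5-5. The CHLA-90 arrays read 8.59, 7.84 and 8.15, then 8.22, 9.24 and 8.89, then 9.37, 9.55 and 10.07. In SK-N-BE(2) both hairpins lay clear of the controls, with shERK5-5 above shERK5-4, and in CHLA-90 1 shERK5-4 array, replicate 1, fell within the control range. The rises were 2.53-fold (log2 1.34 ± 0.25, adjusted p = 0.000242), 3.95-fold (1.98, 5.05e-06) and, with shERK5-5 in CHLA-90, 2.77-fold (1.47, 0.000296). With shERK5-4 in CHLA-90 the change was 0.59 (0.111), and without replicate 1 of that group it was 0.87 (0.0195). ULK2, its paralog, lay below the median probe and changed by 0.24, 0.25, -0.10 and 0.44 (± 0.24), none called.

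UVRAG, a partner of Beclin 1 in the lipid kinase complex of late autophagy and endosome traffic, rose mainly with shERK5-4. Its arrays in SK-N-BE(2) were 9.33, 9.94 and 9.33 under shNSC, 10.97, 10.83 and 10.59 with shERK5-4, and 9.78, 9.70 and 9.41 with shERK5-5. In CHLA-90 they were 8.88, 8.85 and 8.84, then 9.83, 10.14 and 9.82, then 9.84, 9.63 and 9.22. All hairpin arrays exceeded the closely placed controls of CHLA-90, while the shERK5-5 arrays of SK-N-BE(2) fell within the control range. The rise with shERK5-4 was 2.40-fold (1.26 ± 0.20, adjusted p = 3.01e-05) and 2.10-fold (1.07, 0.00031). With shERK5-5 the log2 change was 0.10 (0.856) in SK-N-BE(2) and 0.71 (0.019) in CHLA-90. The latter was lost without shERK5-5 replicate 1 or 2 or shNSC replicate 2 or 3 of CHLA-90 (0.0519 to 0.0947). BECN1, which encodes Beclin 1 itself, rose with shERK5-4 in SK-N-BE(2) by 0.68 ± 0.18 (0.00669), lost without shERK5-4 replicate 3 or shNSC replicate 2 (0.0566 and 0.061), and its other changes were 0.23, -0.20 and -0.02. WIPI1, which binds the lipid that this kinase complex makes, rose with shERK5-4 in CHLA-90 by 0.61 ± 0.21 (0.0417), lost without any of 6 arrays (0.0509 to 0.144) and under median centring (0.0667).

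ATG9A moved in opposite directions with the hairpins, and did so in both lines. It encodes the transmembrane lipid scramblase whose vesicles seed the autophagosome. In SK-N-BE(2) it read 9.92, 10.00 and 9.80 under shNSC, 7.95, 8.45 and 8.49 with shERK5-4, and 11.56, 11.11 and 11.47 with shERK5-5. Those of CHLA-90 read 9.58, 9.46 and 9.90, then 7.31, 7.83 and 7.27, then 10.67, 10.57 and 10.87. The 3 groups of each line formed separate bands, with shERK5-4 lowest and shERK5-5 highest. With shERK5-4 the log2 change was -1.61 ± 0.19 (32.8% of the control signal, adjusted p = 1.23e-06) and -2.18 (22.1%, 2.61e-08). With shERK5-5 it was 1.47 (2.78-fold, 1.04e-05) and 1.06 (2.08-fold, 0.000733). ATG9A was the 1 gene of the 42 called in opposite directions by the hairpins in SK-N-BE(2) (2.38%, beside 1.94% of all probes) and in CHLA-90 (2.38%, beside 1.40%), and the pattern was the same in both lines for 0.429% of all probes. Its average over the hairpins of a line therefore describes neither of them.

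The conjugation genes gave no call with shERK5-4 when all arrays were used, and fell in part with shERK5-5. ATG12, the ubiquitin-like protein that is joined to ATG5, read 10.53, 10.39 and 10.54 under shNSC in SK-N-BE(2), 10.96, 10.86 and 10.74 with shERK5-4, and 9.20, 9.17 and 9.04 with shERK5-5. For CHLA-90 the values were 10.69, 11.08 and 10.48, then 11.04, 11.14 and 11.03, then 9.65, 9.95 and 9.37. The shERK5-5 arrays lay about a log2 unit below the rest in both lines. Their change was -1.35 ± 0.17 (39.2% of control, adjusted p = 7.6e-06) and -1.09 (46.9%, 0.000159). With shERK5-4 it was 0.37 (0.147) and 0.32 (0.246). ATG7, the activating enzyme that loads ATG12 and the ATG8 proteins, had the widest spread of the 42 genes, with a standard error of 0.35. Its arrays were 7.73, 8.26 and 7.60 under shNSC, 7.59, 5.99 and 7.84 with shERK5-4, and 6.83, 6.31 and 7.26 with shERK5-5, all in SK-N-BE(2), and 8.35, 8.04 and 8.73, then 8.78, 9.23 and 8.93, then 8.79, 8.0 and 8.32 in CHLA-90. Replicate 2 was low in both hairpin groups of SK-N-BE(2), and high in the controls. The shERK5-5 change there, -1.06 (0.0473), was lost without any of 11 arrays (0.0516 to 0.226) and under median centring (0.0512). The shERK5-4 change there became a call without shERK5-4 replicate 3 (-1.07, adjusted p = 0.0353). ATG5 changed by -0.25, -0.24, 0.31 and -0.02 (± 0.18) and ATG16L1 by -0.48, 0.24, 0.09 and -0.06 (± 0.20), none called. Without SK-N-BE(2) shERK5-5 replicate 2 the first change of ATG16L1 was called (adjusted p = 0.0407).

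The 4 ATG4 proteases, which trim ATG8 proteins and later free them from lipid, did not move together. ATG4D had the largest rise of the 42 genes in all 4 comparisons. It read 8.23, 7.86 and 8.07 under shNSC in SK-N-BE(2), 10.06, 10.56 and 10.37 with shERK5-4, and 10.78, 10.74 and 10.89 with shERK5-5. In CHLA-90 it read 8.18, 7.98 and 8.03, then 10.42, 10.42 and 10.60, then 10.50, 10.28 and 10.73. The control arrays of both lines sat near 8 and the hairpin arrays all lay above 10, with no overlap. SK-N-BE(2) showed rises of 4.85-fold and 6.73-fold and CHLA-90 of 5.34-fold and 5.43-fold, or 2.28, 2.75, 2.42 and 2.44 on the log2 scale (± 0.17 SE each). Adjusted p-values were 8.61e-10, 2.63e-10, 5.99e-10 and 3.53e-09. The difference between lines in the mean effect was -0.09 ± 0.21 (0.896).

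ATG4A, which acts mainly on the GABARAP branch, rose with shERK5-4 in both lines. It read 7.01, 6.92 and 6.81 under shNSC, 8.31, 7.30 and 7.91 with shERK5-4, and 7.38, 7.31 and 7.28 with shERK5-5, all in SK-N-BE(2), and 7.97, 7.80 and 7.63, then 8.80, 8.64 and 9.06, then 8.08, 7.63 and 7.62 in CHLA-90. The shERK5-4 arrays were above all controls, by 1.90-fold (0.93 ± 0.21, adjusted p = 0.00165) and 2.05-fold (1.03, 0.000881). With shERK5-5 the changes were 0.41 (0.253) and -0.02 (0.964). ATG4B, the broadest of the proteases, fell with shERK5-4 in SK-N-BE(2), from 8.69, 8.78 and 8.72 to 8.02, 7.87 and 7.37, and read 8.94, 8.81 and 8.66 with shERK5-5. In CHLA-90 it read 7.78, 7.55 and 7.89, then 7.47, 7.99 and 7.65, then 8.08, 7.96 and 8.61. The fall in SK-N-BE(2), to 50.8% of the control signal, was clear of the controls (-0.98 ± 0.20, adjusted p = 0.000667), and the other changes were 0.07, -0.04 and 0.48, none called. ATG4C fell with shERK5-4 in SK-N-BE(2) by 0.72 on the log2 scale (± 0.23, adjusted p = 0.0257), lost without shERK5-4 replicate 3 or shNSC replicate 1 or 3 (0.081 to 0.192), and its other changes were 0.22, -0.40 and 0.27.

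**Figure D3:**
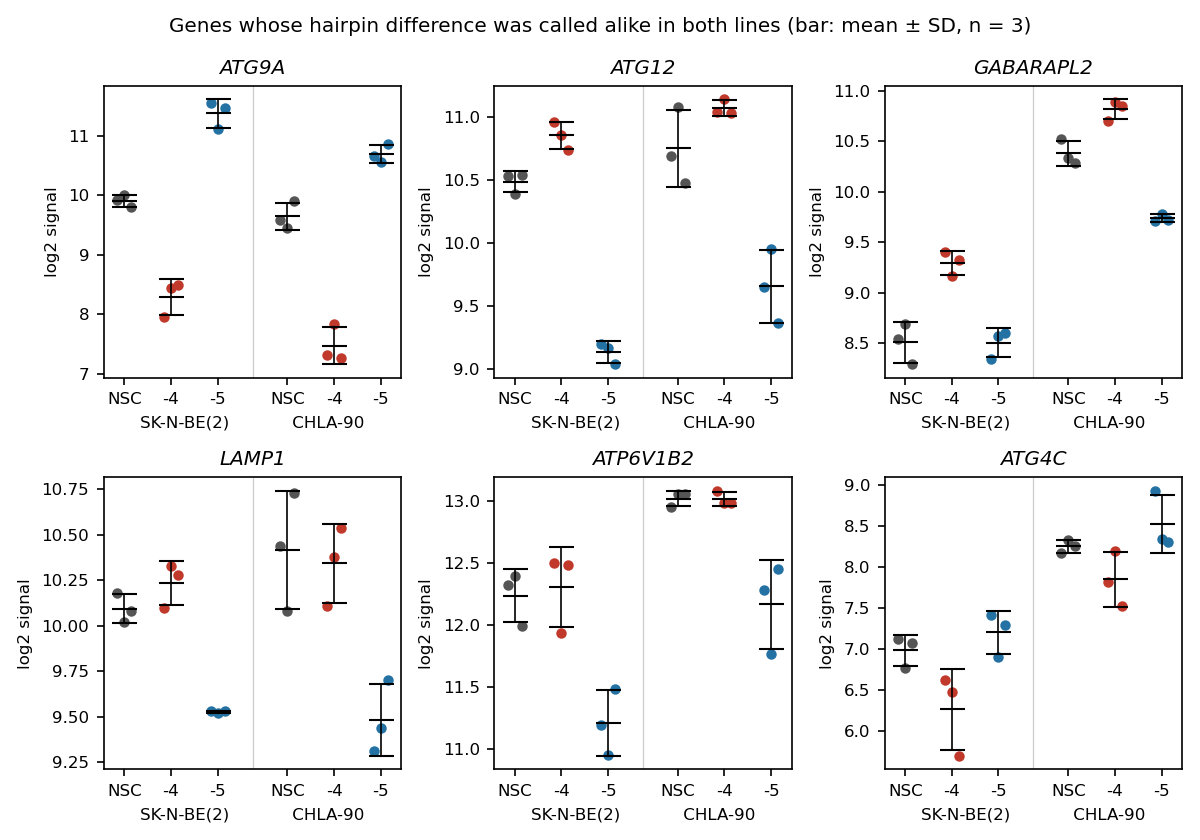
Log2 signal of each array (points) for the 6 genes whose difference between the hairpins was called the same way in both lines, with the mean ± SD of the 3 arrays as bars, and grey for shNSC, red for shERK5-4 and blue for shERK5-5. ATG9A is low with shERK5-4 and high with shERK5-5, and ATG12, LAMP1 and ATP6V1B2 are low with shERK5-5 only.

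Among the 5 measured ATG8 genes, 3 rose with shERK5-4 in SK-N-BE(2), where 12.2% of all probes were called higher and 40.8% of those above the median were called in either direction. One of these calls, that of MAP1LC3B, was lost without any of 10 arrays. Of the 5, 0 were called with shERK5-5 there or with shERK5-4 in CHLA-90, and 1 fell with shERK5-5 in CHLA-90. GABARAPL2, a member of the GABARAP branch also known for Golgi traffic, read 8.54, 8.69 and 8.29 under shNSC, 9.40, 9.16 and 9.32 with shERK5-4, and 8.34, 8.57 and 8.60 with shERK5-5, all in SK-N-BE(2). In CHLA-90 it read 10.52, 10.33 and 10.28, then 10.70, 10.89 and 10.85, then 9.71, 9.78 and 9.72. In SK-N-BE(2) the shERK5-4 arrays stood above the rest, and in CHLA-90 the groups formed 3 separate bands. The log2 changes were 0.79 ± 0.15 (adjusted p = 0.000462), 0.00 (0.996), 0.44 (0.0529) and -0.64 (0.00767). GABARAP rose with shERK5-4 in SK-N-BE(2), from 13.64, 13.51 and 13.54 to 14.08, 14.58 and 14.11 (0.69 ± 0.17, 0.00376), and changed by 0.30, 0.03 and 0.06 elsewhere.

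MAP1LC3B, the LC3 protein used to count autophagosomes, read 10.94, 10.60 and 11.37 under shNSC, 11.48, 11.18 and 12.33 with shERK5-4, and 11.30, 11.40 and 11.61 with shERK5-5, all in SK-N-BE(2). In CHLA-90 it read 13.10, 13.46 and 13.17, then 13.59, 13.71 and 13.78, then 12.76, 13.39 and 13.37. Only the shERK5-4 change in SK-N-BE(2) was called (0.69 ± 0.25, adjusted p = 0.0446), with overlapping arrays, and it was lost without any of 10 arrays (0.0514 to 0.313) and under median centring (0.0504). Its close copy MAP1LC3B2 may add to this probe's signal. MAP1LC3A changed by -0.16, -0.07, 0.72 and -0.27 (± 0.28) and GABARAPL1 by 0.36, 0.30, -0.07 and -0.34 (± 0.21), none called. Without SK-N-BE(2) shERK5-4 replicate 2 the first change of GABARAPL1 was 0.65 (adjusted p = 0.0151). SQSTM1, the p62 cargo receptor that autophagy itself degrades, read 10.85, 10.60 and 10.72 under shNSC in SK-N-BE(2), while its CHLA-90 controls read 11.25, 11.29 and 11.56. With shERK5-4 it read 10.94, 11.39 and 11.12, and 11.67, 11.88 and 11.95. These lay just above the controls in both lines. Its changes, 0.43 (0.0685), 0.19 (0.6), 0.47 (0.0548) and -0.27 (0.326), all with a standard error of 0.17, did not pass the threshold.

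The hairpins were also compared with each other, which uses no control array. In SK-N-BE(2), shERK5-4 was higher than shERK5-5 for 5 of the 42 genes and lower for 8, against 11.8% and 12.6% of all probes. In CHLA-90 it was higher for 15 and lower for 3, against 14.8% and 12.4%. The called share in CHLA-90 was 42.9% of the genes, beside 27.2% of all probes and 41.4% of those above the median, and it fell to 11 genes without CHLA-90 shERK5-4 replicate 1. In SK-N-BE(2) the share was 31.0%, beside 24.5% of all probes and 41.9% of those above the median. For 6 genes the difference was called in the same direction in both lines (14.3%, beside 11.7% of all probes). For this count the share among probes above the median was not calculated. ATG9A was lower with shERK5-4, with log2 differences of -3.08 and -3.23 (± 0.19, adjusted p = 4.85e-11 and 4.38e-11), 8.48-fold and 9.40-fold. ATG12 was higher with shERK5-4 by 1.72 and 1.41 (± 0.17, 7.22e-08 and 1.9e-06), or 3.29-fold and 2.66-fold. LAMP1 was higher by 0.71 and 0.86 (± 0.18), ATP6V1B2 by 1.10 and 0.85 (± 0.20) and GABARAPL2 by 0.79 and 1.08 (± 0.15). ATG4C differed by -0.94 and -0.68 (± 0.23, 0.00366 and 0.0339), the second lost without any of 3 arrays (0.0796 to 0.176). The plot of these genes by array shows that the ATG12, LAMP1 and ATP6V1B2 differences come from the shERK5-5 groups, and those of ATG9A from both.

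The effect of silencing was then compared between the lines. Averaged over the hairpins, 0 of the 42 genes had a higher effect in CHLA-90 and 1 a lower one, against 2.19% and 2.20% of all probes (4.39% in either direction). That gene was MCOLN1, whose 2 hairpins together gave a log2 effect lower in CHLA-90, with a difference of -0.99 ± 0.22 (95% interval -1.44 to -0.54, adjusted p = 0.00915), and the call held when any 1 array was left out. ATG7 and ATG4B had the next smallest p-values, with differences of 1.2 ± 0.43 (adjusted p = 0.131) and 0.67 ± 0.24 (0.138). For shERK5-4 alone 1 gene was higher and 2 lower, against 3.89% and 3.33% of all probes (7.23% in either direction), and for shERK5-5 alone 0 were higher and 2 lower, against 2.40% and 2.99% (5.39%). These were ATG4B (0.94 ± 0.28, 0.044), MCOLN1 (-0.93 ± 0.25, 0.0227) and BECN1 (-0.88 ± 0.26, 0.0376) for shERK5-4, and MCOLN1 (-1.04 ± 0.25, 0.0165) and ATP6V1D (-0.89 ± 0.23, 0.0237) for shERK5-5. Each of these 5 calls was lost without at least 1 array, and that of ATG4B also under median centring (0.055). In the plot of the lines against each other, M6PR and ATG4D lie close to the line of equal change.

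**Figure D4:**
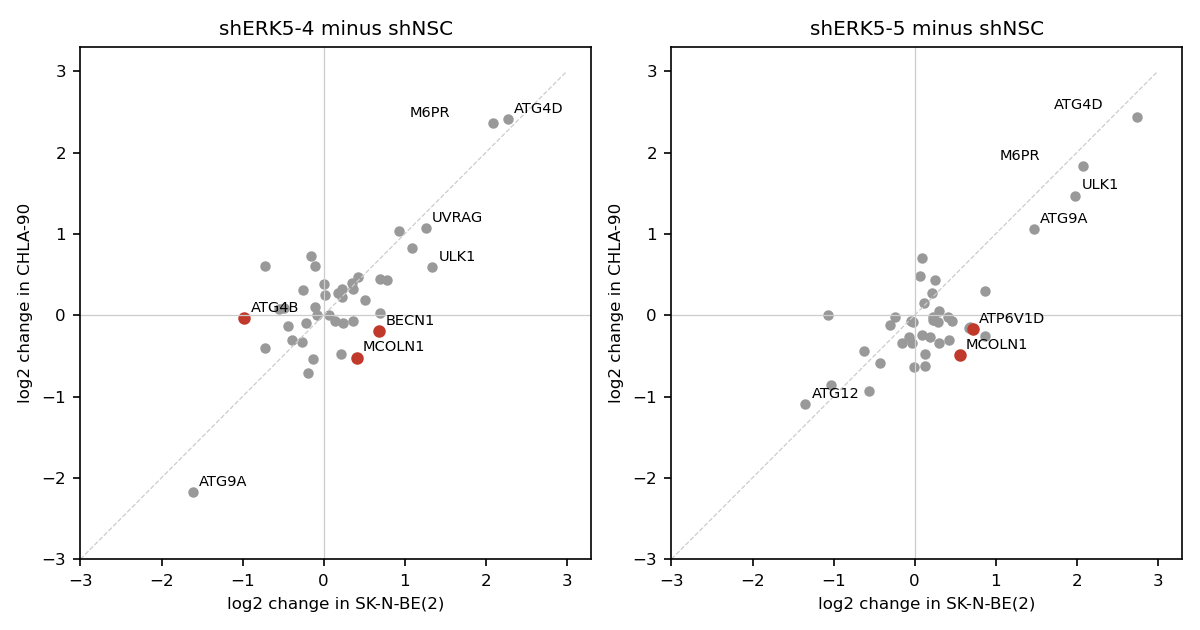
Log2 change in CHLA-90 (vertical) against that in SK-N-BE(2) (horizontal) for the 42 genes (points), with shERK5-4 on the left and shERK5-5 on the right, red for a called difference between lines and a dashed line for equal change. MCOLN1 is right of zero and below it in both panels, and ATG4D and M6PR lie at the upper right.

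Other genes of the pathway, from 4 lists with 156 entries of which 136 were measured, gave 44 calls higher and 10 lower with shERK5-4 in SK-N-BE(2), and 20 and 14 with shERK5-5. In CHLA-90 the counts were 26 and 13, then 8 and 21. The called shares were 39.7%, 25%, 28.7% and 21.3%, beside 23.9%, 12.8%, 18.3% and 12.7% of all probes. Of the 136 genes, 108 lay above the median probe, and of these 46.3%, 30.6%, 33.3% and 25% were called, beside 40.8%, 22.8%, 30.1% and 20.5% of all such probes. Lysosomal genes (48 measured) gave 17 and 4, 9 and 7, 12 and 5, and 3 and 8. V-ATPase genes (16) gave 4 and 1, 1 and 1, 3 and 2, and 2 and 1. Autophagy genes (39) gave 13 and 2, 5 and 2, 7 and 3, and 2 and 5, and genes of nutrient sensing at the lysosome (33) gave 10 and 3, 5 and 4, 4 and 3, and 1 and 7. Both hairpins gave the same call for 18 of the 136 genes in SK-N-BE(2) (13.2%, beside 5.21% of all probes and 9.34% of those above the median) and for 8 in CHLA-90 (5.88%, beside 3.51% and 6.07%). SLC17A5, ATP6V0C, NPRL3 and CALCOCO2 were called alike in both lines, which makes 4 (2.94%, beside 1.29% and 2.5%).

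SLC17A5, the lysosomal sialic acid exporter, rose by 1.85, 1.96, 2.03 and 1.77 on the log2 scale (± 0.29), with a mean signal of 5.95 under shNSC, 7.80 with shERK5-4 and 7.92 with shERK5-5, all in SK-N-BE(2). ATP6V0C, the proteolipid that forms most of the V-ATPase rotor ring, rose by 1.70, 1.51, 1.52 and 1.16 (± 0.17), from 13.16 ± 0.22 (SD, n = 3) under shNSC to 14.86 ± 0.12 with shERK5-4 in SK-N-BE(2). NPRL3, a subunit of the GATOR1 complex that restrains mTORC1, rose by 1.07, 1.58, 1.16 and 0.88 (± 0.24), the last lost without CHLA-90 shERK5-5 replicate 3 or shNSC replicate 2 or 3 (adjusted p of 0.0512 to 0.101). CALCOCO2, the NDP52 receptor for bacteria and mitochondria in autophagy, fell with log2 changes of -2.0, -1.27, -1.03 and -1.22 (± 0.18). These 4 genes had hairpin arrays clear of the controls in every comparison. ATP6V0C and ATP6V0D1 are both V0 subunits called higher with both hairpins in SK-N-BE(2), where 5.21% of all probes were called alike. ATP6V0B, also of V0, was not called. Of the 16 V-ATPase genes on the list, 2 were called alike in that line, ATP6V0C and VMA21, and VMA21 fell.

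Among the other lysosomal genes, OSTM1, the partner of the chloride exchanger ClC-7, fell with shERK5-4 in each line, with log2 changes of -2.84 and -2.84 (± 0.20, adjusted p = 4.72e-10 and 8.03e-10). With shERK5-5 it changed by -0.29 (0.455) and -0.76 (0.0146), the second lost without either of 2 arrays (0.0747 and 0.0815). FUCA1, the lysosomal fucosidase, rose by 1.35, 1.18 and 1.28 (± 0.27) and changed by 0.09 with shERK5-5 in CHLA-90. SMPD1, acid sphingomyelinase, rose by 1.75, 0.86 and 1.28 (± 0.18) and changed by -0.13 there. VMA21, an assembly factor of the V-ATPase, fell with changes of -1.84, -1.48 and -0.84 (± 0.24), the third lost without any of 3 arrays (0.0587 to 0.0983), and its change with shERK5-5 in CHLA-90 was -0.37.

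In autophagy, WIPI2, which recruits the conjugation machinery, rose in SK-N-BE(2) by 1.28 and 0.83 (± 0.15) and changed by 0.21 and 0.04 in CHLA-90. ATG14, which directs the Beclin 1 complex to autophagosome initiation, rose by 0.90 and 0.72 in SK-N-BE(2) and by 0.84 with shERK5-5 in CHLA-90 (± 0.20), with 0.48 (0.103) for shERK5-4. ATG2A, a lipid transfer protein, rose by 0.92 and 0.98 in SK-N-BE(2) (± 0.26). SESN1 and SESN3, stress-responsive proteins that restrain mTORC1, rose there by 1.15 and 0.82 (± 0.21), and by 0.70 and 0.93 (± 0.24). The shERK5-5 calls of ATG14, SESN1 and SESN3 and both calls of ATG2A in SK-N-BE(2) were lost without 1 or 2 of its arrays taken singly, and the shERK5-4 call of SESN3 without any of 4.

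The lines already differed under shNSC. Array medians were higher in CHLA-90, so this comparison used values from which each array's median had been taken. On that scale 14 of the 42 genes were higher in CHLA-90 and 10 lower, against 19.2% and 37.1% of all probes (56.3% in either direction), with a median difference of 0.138 beside -0.265 over all probes. As deposited, 27 were higher and 4 lower, with medians of 0.857 and 0.453 and 60.0% of all probes called. The 14 higher genes were called higher as deposited and after quantile normalization too. Of the 10 lower ones, GLA, GUSB, UVRAG and ATG4B were called lower on all 3 scales, CTSD, ATG9A and ATG5 were lower but not called as deposited, and TFEB, ATG12 and ATG4D turned to a higher value as deposited (0.14, 0.26 and 0.01, none called). TFEB lay near the bottom of the array, with means of 2.64 in SK-N-BE(2) and 2.78 in CHLA-90 as deposited. Of the 3 scales, only centring gave it a call.

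All 5 ATG8 genes were higher in CHLA-90. MAP1LC3B averaged 13.24 ± 0.19 (SD, n = 3) there as deposited and 10.97 ± 0.39 in SK-N-BE(2), a difference of 1.56 ± 0.25 after centring (adjusted p = 1.57e-05). GABARAPL2 differed by 1.15, GABARAPL1 by 1.15, MAP1LC3A by 0.91 and GABARAP by 0.72. MAP1LC3A lay below the median probe in both lines, at 4.31 in SK-N-BE(2) and 5.94 in CHLA-90 as deposited, with no detection calls. ATP6V0B showed the largest excess, 13.28 ± 0.25 against 10.79 ± 0.42 as deposited and 1.77 ± 0.24 after centring (1.79e-06), followed by MAP1LC3B and MCOLN1 (12.30 ± 0.23 against 10.28 ± 0.25, and 1.30 ± 0.18, 2.43e-06). ATP6V0D1 (1.28), ULK2 (1.26), BECN1 (0.62), ATP6V1D (0.61), ATG4C (0.55), CTSB (0.52) and ATP6V1A (0.48) were also higher. GUSB, β-glucuronidase, read 8.63, 8.53 and 8.49 in SK-N-BE(2), while its CHLA-90 arrays read 7.21, 7.17 and 6.79, and the difference after centring was -2.21 ± 0.19 (1.21e-09). ATG4B differed by -1.71 ± 0.20 (2.07e-07) and UVRAG by -1.40 ± 0.19 (2.18e-06). M6PR rose with both hairpins in each line, and ULK1 with both in SK-N-BE(2) and with shERK5-5 in CHLA-90. Under shNSC these genes differed between the lines by 0.16 (0.478) and -0.18 (0.554) after centring, neither called. M6PR was called higher in CHLA-90 as deposited (0.87) and after quantile normalization (0.48). ULK1 was called on neither of those scales (0.54 and -0.13). The calls of CTSB, ATP6V1A, ATG4C and ATG12 were lost without some arrays (adjusted p of 0.0509 to 0.209).

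**Figure D5:**
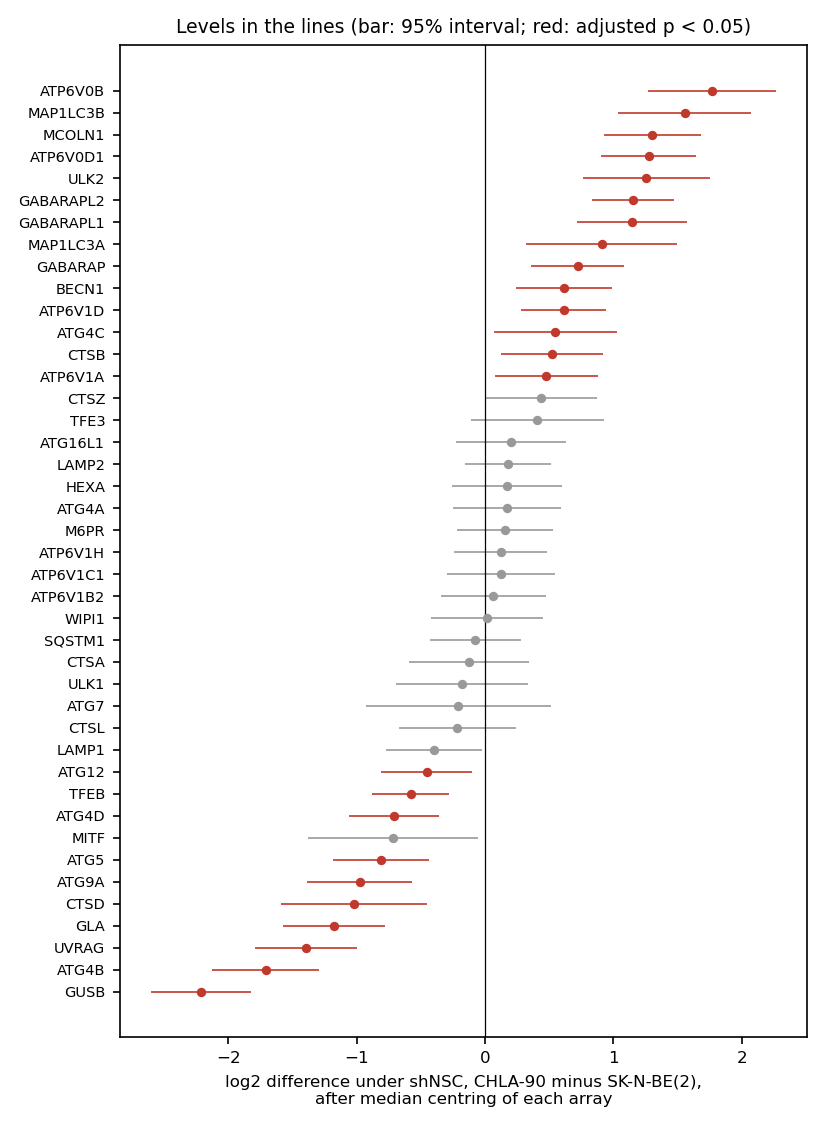
Difference in log2 signal under shNSC, CHLA-90 minus SK-N-BE(2), after each array's median was taken out, for the 42 genes in order of size, with 95% intervals as bars and red for an adjusted p under 0.05. The ATG8 genes, ATP6V0B, ATP6V0D1 and MCOLN1 lie at the top and GUSB, ATG4B and UVRAG at the bottom.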

How the data were processed

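Total RNA was isolated with a miRNeasy kit and labelled with a whole-transcript kit, per the labels' protocols. The authors deposited 1 log2 signal per probe and array with 2 decimals; no source states the base, which was read from the spread of values. How probes were summarised and normalized is not stated in the sources used here, and detection calls were not among the values used. Array medians differ by line, and whether the lines were normalized together is not known, which bears on the comparison of lines. Precision is limited by 3 arrays a group. The labels call the replicates biological and say no more of how they were grown, so p-values measure the spread between these samples.

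Probes were named from the array's annotation (17709 with 1 symbol, 3739 with none), and a gene with several probes was to be represented by the brightest. A limma model (version 3.58.1, under R 4.3.3) with 6 group means was fitted to all 18 arrays and 21448 probes without covariates, with 12 residual and 9.588 prior degrees of freedom. The Benjamini-Hochberg adjustment ran across every probe, and an adjusted p under 0.05 was called whatever its fold. Errors of changes are standard errors of the model and intervals are 95%. The model was tested on simulated data. The genes, the lists of other genes and the naming rule were chosen with earlier results of these data known. The rule gives array values for genes called alike with both hairpins in a line, the 3 smallest p-values in the line difference, and the 3 largest called differences between hairpins and, in each direction, between lines. Other pathway genes are named up to 4 per list, taking the largest mean change of genes on which a line's hairpins gave like calls. LAMP1, LAMP2, CTSA, CTSB, CTSD, GLA, ATP6V1B2, ATP6V1D, ATG4A, ATG4C, GABARAP, TFEB, TFE3 and SQSTM1 were given array values or fuller text after their values were seen, as were the shares among bright probes and the line differences of single hairpins. Promoters come from RefSeq on GRCh38.p14. Alternatives were other normalizations, a filter on dim probes, a replicate block, smaller sets of arrays, other variance settings, a minimum fold of 1.5, a threshold of 0.01, and leaving out each array.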

Additional observations from a re-analysis of the deposited data

Results flagged for a closer look

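The effect of silencing on MCOLN1 differed between the lines by a test of the difference itself, at -0.99 log2 units for the mean of the hairpins, -0.93 for shERK5-4 and -1.04 for shERK5-5 (CHLA-90 minus SK-N-BE(2); adjusted p = 0.00915, 0.0227 and 0.0165 in limma). In both hairpin groups the mean was above the control in SK-N-BE(2) and below it in CHLA-90. The same test gave -0.88 for BECN1 and 0.94 for ATG4B with shERK5-4, and -0.89 for ATP6V1D with shERK5-5 (0.0376, 0.044 and 0.0237). The MCOLN1 call for shERK5-4 was lost without any of 6 arrays (0.0526 to 0.0713) and that for shERK5-5 without CHLA-90 shNSC replicate 3 (0.0537), while that for the mean of the hairpins was kept whichever array was left out. The call of BECN1 was lost without any of 8 arrays, that of ATG4B without any of 11 and that of ATP6V1D without any of 4.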

How the results depend on the processing

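For the counts and medians, 125 values under other settings and 258 with 1 array left out stayed within 1.5 times the reported count or within the spread between replicates, while 4 and 12 did not. Those 4 were 14 calls in place of 9 for shERK5-4 in CHLA-90 when only the arrays of the groups compared were fitted, 8 in place of 15 for shERK5-5 in SK-N-BE(2) and 10 in place of 18 between hairpins in CHLA-90 at a threshold of 0.01, and a median of -0.123 in place of -0.102 for shERK5-5 in CHLA-90 under median centring. There GABARAPL2 with shERK5-5 in SK-N-BE(2) turned from -0.003 to 0.02, neither called. Leaving out 1 array, calls ranged from 11 to 16 and 8 to 15 in SK-N-BE(2) and from 7 to 11 and 8 to 11 in CHLA-90 (shERK5-4, then shERK5-5), from 4 to 6 and 2 to 4 alike with both hairpins in the lines, from 2 to 3 in both lines, from 10 to 16 and 11 to 20 between hairpins, and from 21 to 25 between lines, with 1 gene for the line difference throughout. The medians ranged from 0.067 to 0.214, 0.129 to 0.238, 0.114 to 0.184 and -0.152 to -0.096. For single genes, the range of a change with 1 array left out was followed only in genes picked by the naming rule. Among those genes, 7 changes that were not called turned sign. They ranged, with shERK5-5 in SK-N-BE(2), from -0.005 to 0.3 for UVRAG, -0.112 to 0.088 for GABARAPL2 and -0.07 to 0.35 for ATP6V0B. For shERK5-5 in CHLA-90 the ranges were -0.178 to 0.137 for MAP1LC3B and -0.213 to 0.182 for ATG7. For shERK5-4 in CHLA-90 they were -0.18 to 0.08 for ATG4B and -0.023 to 0.132 for ATP6V1C1. Turns of sign in the remaining genes were not counted. Of the called genes, 10 of 14, 8 of 15, 7 of 9 and 8 of 10 kept their call whichever array was left out. The causes were not tested.

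The labels do not say that a replicate number marks a shared culture or day, so the numbers were not taken to pair the samples. The correlation of residuals between arrays of the same number was -0.126 to 0.204 in SK-N-BE(2), with 3 of 9 above 0.1, and -0.056 to 0.204 in CHLA-90, with 4 of 9. Between arrays of different numbers it was -0.23 to 0.24 and -0.194 to 0.103, with 2 of 18 above 0.1 in each line, a smaller share. The arrays numbered 3 did deviate together in each line, with correlations of 0.183, 0.147 and 0.204 in SK-N-BE(2) and of 0.114, 0.204 and 0.144 in CHLA-90. With the replicate number as a block, the 4 comparisons gave 14, 15, 10 and 11 calls in place of 14, 15, 9 and 10, the hairpin comparisons 12 and 20 in place of 13 and 18, and ATP6V0B became called with shERK5-5 in CHLA-90 (-0.62, adjusted p = 0.0114), as did MAP1LC3A with shERK5-4 (0.72, 0.0249). The block also added CTSD (-1.12, 0.0274), GLA (-0.84, 0.0457) and ATP6V0B (-0.75, 0.0481) to the line differences of shERK5-5, which makes 5 lower in place of 2.

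These are RNA levels in transduced bulk cultures, read at 1 time with 1 control hairpin. They do not measure lysosome number, acidity, enzyme activity or autophagic flux. MAPK7 signal remained in every hairpin group, the depth of silencing at the protein level was not measured here, and where the hairpins disagree, effects of the target and of the hairpin itself cannot be told apart.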
